A study of Homo sapiens with 14 samples.

Results

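The genes described here are those whose symbol starts with NDUF, the family name for the nuclear genes of respiratory complex I, taken from the guide names of a pooled CRISPR interference screen. They numbered 40 of the 16684 genes compared, with 214 guides that passed the filter on low counts out of 215 listed. By role they were 7 core subunits, 29 accessory subunits, 1 assembly factor (NDUFAF2) and 3 symbols that do not name a complex I subunit. Those 3 were NDUFA4, now placed in cytochrome c oxidase, its paralogue NDUFA4L2, and the readthrough gene NDUFC2-KCTD14. NDUFA9 had 4 guides and the other 39 genes had 5 at their main start; NDUFV1, NDUFS5 and NDUFC1 also had a second start with 5 guides. Another 7 NDUF genes, 6 of them assembly factors, lie in sublibrary H4, which could not be compared.

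Complex I, NADH:ubiquinone oxidoreductase, takes electrons from NADH in the mitochondrial matrix, passes them along a flavin and a chain of iron-sulfur clusters to ubiquinone, and pumps protons across the inner membrane. Its core subunits, conserved from bacteria, do the catalysis, the accessory subunits surround and stabilise them, and the assembly factors help to build the enzyme without staying in it. The remaining core subunits are encoded in mitochondrial DNA, have no NDUF symbol and are not among the genes described.

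The cells were HEK293 FLP-In, a human embryonic kidney line, carrying the delta opioid receptor (DOR) fused to the peroxidase APEX2 (SSF-DOR-APEX2) and the repressor dCas9-KRAB-BFP, which silences genes at the starts that guides direct it to. Each of the sublibraries H1 to H7 of hCRISPRi-v2-top5 was introduced on its own into these cells, which had been expanded as clonal populations, at a multiplicity of about 0.2. Puromycin at 0.75 µg/ml was given for 3 days, and on day 8 the cells received 10 µM DADLE, a peptide agonist of DOR, for 90 minutes, followed by Amplex UltraRed with hydrogen peroxide, whose product glows where APEX2 is active. The groups were the top (brightest) quartile and the bottom (dimmest) quartile of each sublibrary, with 1 library in each group. All libraries carried the same transgenes and had the same DADLE treatment, so a ratio of top to bottom reads the APEX2 signal after agonist and cannot tell receptor loss from other causes of a changed signal. The growth medium held glucose and no pyruvate. Repression of the NDUF genes, respiration and the identity of the cells were not measured by these libraries, which hold guide DNA.

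The 12 compared libraries held 18054418 to 34636612 guide counts in all. Of the NDUF genes 32 were in H1, 6 in H2, 1 in H3 and 1 in H7. The value of a guide is log2(top/bottom), the log2 of its share of the top library over its share of the bottom library, set to 0 at the median non-targeting guide of the same sublibrary; positive values mean more cells with that guide among the bright. The value of a gene is the mean over its guides with the SD over guides. Non-targeting guides had an SD of 0.265 in H1 and 0.240 in H2, against about 0.047 and 0.049 from counting alone. The adjusted p comes from a two-sided permutation test. It draws random guides from the gene's own guides and the non-targeting guides of its sublibrary, in place of those of the gene. The p was adjusted by Benjamini and Hochberg over all 18116 gene starts, with a threshold of 0.05. No sort was repeated, so this p compares the libraries of a single sort, and the guides of a gene share that sort.

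Among the 40 NDUF genes, 2 accessory subunits were enriched in the top quartile, NDUFAB1 and NDUFB2, and 0 in the bottom quartile. Of all gene starts tested, 2.38% were called in the direction of the top library and 1.52% in that of the bottom library. Within H1 1.84% of starts were called higher in the top library, where 1 of 32 NDUF genes was, and within H2 3.86%, where 1 of 6 was. Counts of 1 are too small to set the NDUF genes apart from these shares. dCas9-KRAB acts close to a gene's start, and the 150 bases before the annotated starts of the called genes are given here because repression was directed at these starts. They come from RefSeq promoters of build GRCh38.p14, NDUFAB1 from the minus strand of chr16:23596317-23596466 and NDUFB2 from the plus strand of chr7:140696558-140696707. Capitals mark the GG of each NGG, the motif that Cas9 needs beside its target, as read on the strand shown.

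NDUFAB1 promoter: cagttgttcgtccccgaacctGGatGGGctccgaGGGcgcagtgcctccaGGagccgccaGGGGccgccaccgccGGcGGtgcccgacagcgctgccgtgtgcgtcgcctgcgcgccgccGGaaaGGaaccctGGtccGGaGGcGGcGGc
NDUFB2 promoter: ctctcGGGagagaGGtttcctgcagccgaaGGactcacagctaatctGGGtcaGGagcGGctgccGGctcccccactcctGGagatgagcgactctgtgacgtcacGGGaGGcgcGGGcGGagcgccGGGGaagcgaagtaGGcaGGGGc

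NGG occurred 18 times on the strand shown and 22 times on the other in the NDUFAB1 window, and 23 and 9 times in that of NDUFB2, overlapping matches included. At least 1 NGG on either strand was present in 99.99% of 35116 promoter windows of this length, with a median of 30 both over all windows and over the 33 of 40 NDUF genes that were matched. The guides themselves are known only by gene, strand and position, in a genome build not given in the sources used here. They were therefore not placed on these windows, which hold no bases after the starts, and a marked NGG is not known to be a site that a guide used.

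NDUFAB1 is the acyl carrier protein of mitochondria, which sits in both arms of complex I and also carries growing chains in mitochondrial fatty acid synthesis. Its 5 guides had 1783, 3565, 1518, 2917 and 2951 counts in the top library, against 1259, 1774, 1055, 1103 and 1582 counts in the bottom library. Every guide lay above 0, with log2 ratios of 0.19, 0.69, 0.21, 1.09 and 0.58 in the same order. The mean was 0.55 ± 0.37 (SD, n = 5 guides), or 1.46-fold in share of the library, with a permutation adjusted p of 0.0276. In H1, 42 of 2555 gene starts had a higher mean. Of these guides 4 are on the minus strand within positions 23607550 to 23607596 of the guide names and overlap a neighbour, and with overlapping guides averaged the mean was 0.49 and the permutation adjusted p 0.223. Without the guide farthest from 0 the mean was 0.42 with a permutation adjusted p of 0.391. Where all guides of a gene lie above 0, this removal always lowers the mean, and the random draws were not trimmed likewise. That p therefore cannot tell a fragile call from the effect of the trimming.

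NDUFB2 is a small subunit of the membrane arm. Its guides had 2159, 1409, 3441, 710 and 5556 counts in the top library, against 1277, 920, 2197, 310 and 4315 counts in the bottom library. All 5 log2 ratios were above 0, at 0.41, 0.27, 0.30, 0.85 and 0.02, and the highest belonged to the guide with the fewest counts. The mean was 0.37 ± 0.30 (SD, n = 5 guides), or 1.29-fold in share of the library, with a permutation adjusted p of 0.0316; 133 of 3209 gene starts in H2 had a higher mean. Without the guide farthest from 0 the mean was 0.25 with a permutation adjusted p of 0.874, with the same limit as for NDUFAB1. The call ended in 5 of 13 alternative settings against 3 of 13 for NDUFAB1, this removal included in both.

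NDUFB10 and NDUFA9 had higher means than NDUFB2 and did not pass the threshold. NDUFB10, a membrane-arm subunit, had 2287, 410, 4547, 2853 and 1605 counts in the top library, against 1640, 345, 2333, 1421 and 793 counts in the bottom library. Its log2 ratios were 0.16, -0.07, 0.65, 0.69 and 0.70, and the 3 high values came from minus-strand guides that lie 6 bases apart and so cover almost the same site. The mean was 0.43 ± 0.36 (SD, n = 5 guides; permutation adjusted p 0.103). NDUFA9, which binds NADPH at the junction of the arms, had 3768, 3130, 2538 and 4328 counts in the top library, against 1428, 2197, 1645 and 3196 counts in the bottom library. A single guide stood at 1.08 and the other 3 at 0.19, 0.31 and 0.12, for a mean of 0.43 ± 0.44 (SD, n = 4 guides; permutation adjusted p 0.172). Its other listed guide had 18 counts in the top and 0 in the bottom library and was left out by the filter; with no filter on counts the mean was 1.13 and the permutation adjusted p 0.00751, a value that rests on the pseudocount for that guide. NDUFB6, the next in order and also a membrane-arm subunit, had 0.25 ± 0.33 (SD, n = 5 guides; permutation adjusted p 0.405).

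**Figure D1:**
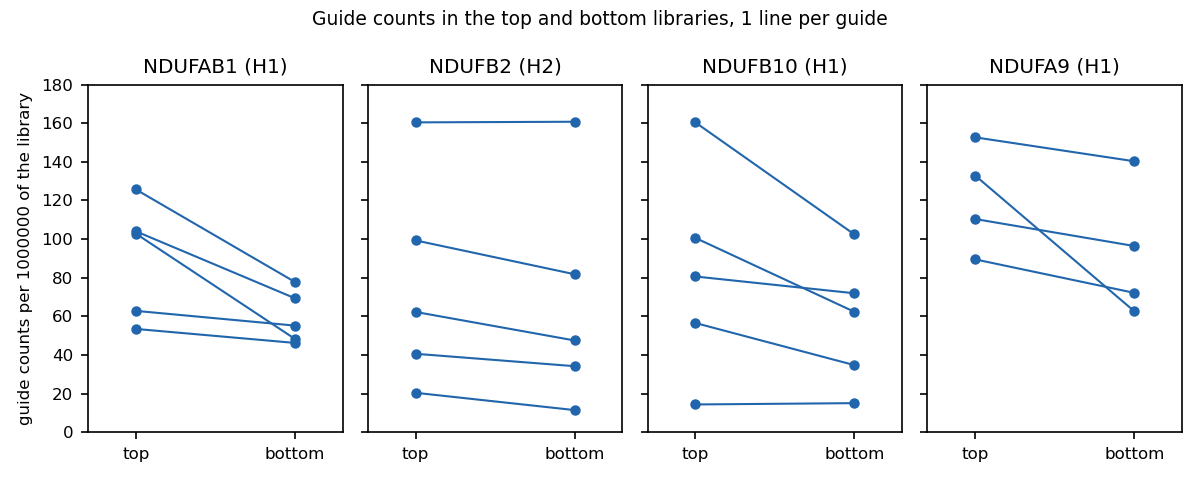
Guide counts per 1000000 counts of the library (vertical axis) in the top and the bottom library, for the 4 NDUF genes with the highest means; each line is 1 guide, and the sublibrary stands in the title of each panel. In the NDUFA9 panel a single line is steep, while in the NDUFAB1 panel all 5 lines fall toward the bottom library.

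The 7 nuclear core subunits carry the flavin, the iron-sulfur clusters and the ubiquinone site, and 0 of them passed the threshold. Their median was 0.08, from -0.06 to 0.18, with 5 of 7 above 0; without the guide farthest from 0 in each gene it was 0.03. NDUFS1, which holds iron-sulfur clusters of the NADH-oxidising module, was the highest. Its guides had 4236, 1699, 4741, 1611 and 5609 counts in the top library, against 3276, 1234, 3300, 1052 and 3885 counts in the bottom library. All 5 lay above 0, from 0.05 to 0.30, with a mean of 0.18 ± 0.09 (SD, n = 5 guides) and a permutation adjusted p of 0.571. Its guides thus lay close together, on the bright side, within the range of non-targeting guides.

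NDUFS7 and NDUFS8, iron-sulfur subunits near ubiquinone, also had every guide above 0, with 0.11 ± 0.19 and 0.09 ± 0.07 (SD, n = 5 guides each). In NDUFS7 a single guide at 0.45 stood apart from the other 4, which lay between 0.00 and 0.05. NDUFV2, an iron-sulfur subunit beside the flavin, had 0.08 ± 0.14 (SD, n = 5 guides). NDUFS3, of the matrix arm, had -0.04 ± 0.12, and NDUFV1, which binds NADH and the flavin, had -0.06 ± 0.07 at its main start and -0.02 ± 0.14 at the other (SD, n = 5 guides each). The permutation adjusted p of these 5 genes at their main starts ran from 0.781 for NDUFS7 to 0.950 for NDUFS3. The farthest of the 35 core guides was the NDUFS7 guide with 1538 counts in the top and 888 counts in the bottom library, inside the central 95% of non-targeting guides of H2, which ends at 0.50.

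The 29 accessory subunits had a median of 0.12, from -0.26 to 0.55, with 24 above 0, and 2 were called; without the guide farthest from 0 in each gene the median was 0.08. An unadjusted permutation p under 0.05 was found in 5 of them, 17.2%, against 12.8% of all genes. Over the whole list of 40 NDUF genes the share was 12.5%, near that of all genes, with 0 of the 7 core subunits. The SD over guides of the accessory subunits was wider than that of the core subunits, with a median over genes of 0.27 against 0.12. Over all genes this median was 0.22, between the 2. By position in the enzyme, the 19 membrane-arm subunits had a median of 0.12 with 1 call, and the 16 matrix-arm subunits, core included, had 0.09 with 0 calls; NDUFAB1 belongs to both arms. By symbol, the 10 NDUFB genes had a median of 0.17 and the 12 NDUFA genes of 0.11, beside 0.10 for 8 NDUFS genes, 0.04 for the 2 NDUFC genes and 0.00 for 3 NDUFV genes. Differences between these medians were not tested. NDUFS4, an accessory subunit mutated in Leigh syndrome, had all guides above 0 with a mean of 0.17 ± 0.11 (SD, n = 5 guides), and so was the 1 accessory gene beyond NDUFAB1, NDUFA9 and NDUFB2 of which this held. NDUFB5, NDUFB4, NDUFS5, NDUFB3, NDUFB1, NDUFA5, NDUFA6, NDUFA1, NDUFA8, NDUFA10, NDUFA2 and NDUFA3 fell between 0.10 and 0.19. NDUFC2, NDUFB7, NDUFS6, NDUFA13, NDUFA11 and NDUFV3 fell between 0.00 and 0.08.

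**Figure D2:**
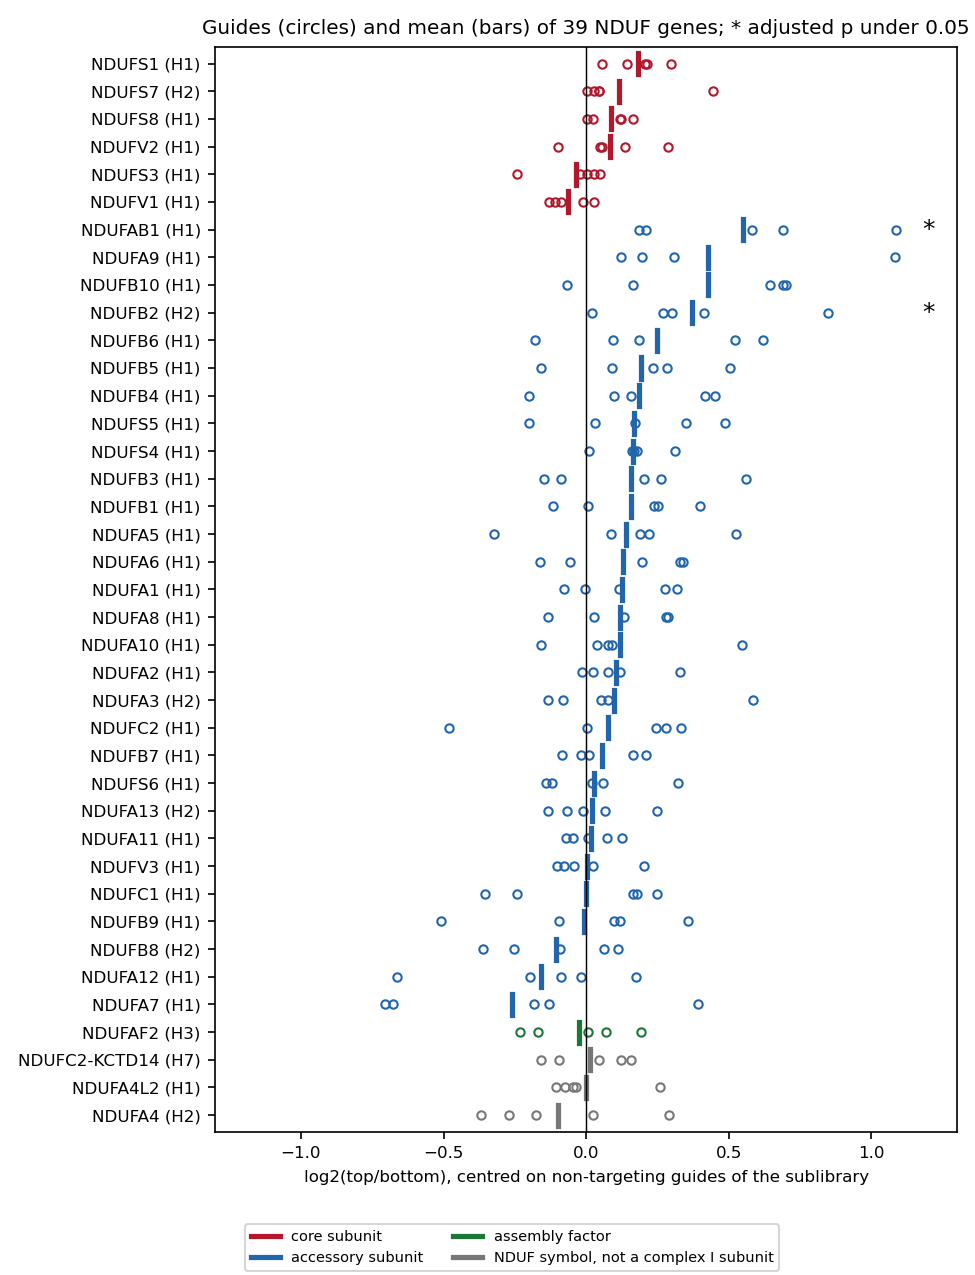
Log2(top/bottom) of each guide (circles) and the mean (bars) of 39 of the 40 NDUF genes, grouped by role, with the sublibrary after each name and a star at an adjusted p under 0.05. Most bars lie slightly right of 0, and within most genes the circles spread to both sides of it.

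The 5 lowest accessory subunits were NDUFA7, NDUFA12, NDUFB8, NDUFB9 and NDUFC1, and none passed. NDUFA7, of the matrix arm, had 1449, 754, 1375, 1372 and 1207 counts in the top library, against 1320, 969, 1208, 839 and 1581 counts in the bottom library. The log2 ratios were -0.18, -0.68, -0.13, 0.39 and -0.71, and the last pair lie 4 bases apart on the same strand, so guides over almost the same bases fell on opposite sides of 0. The mean was -0.26 ± 0.45 (SD, n = 5 guides; permutation adjusted p 0.376). NDUFA12, also in the matrix arm, had -0.16 ± 0.31, with its lowest guide at -0.66 and the guide 3 bases from it at -0.02. NDUFB8 had -0.11 ± 0.20, NDUFB9 had -0.01 ± 0.32, and NDUFC1 had -0.00 ± 0.28 at its main start and -0.05 ± 0.31 at the other (SD, n = 5 guides each).

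NDUFAF2, a paralogue of NDUFA12 that helps late assembly, was the 1 NDUFAF gene that could be compared. Its guides had 1960, 2497, 1012, 1141 and 1578 counts in the top library of H3, against 1922, 2562, 842, 872 and 1372 counts in the bottom library. They lay from -0.23 to 0.19, with a mean of -0.03 ± 0.17 (SD, n = 5 guides; permutation adjusted p 0.966). Of 11 assembly factors without an NDUF symbol 4 could be compared, 7 being in H4, and 0 passed. The farthest from 0 were TMEM261 (DMAC1) at 0.20 ± 0.48 (SD, n = 4 guides) and TMEM126B at 0.18 ± 0.12 (SD, n = 5 guides). Their permutation p-values were 0.132 and 0.125 before adjustment and 0.613 and 0.599 after it. FOXRED1 and COA1 had 0.07 and 0.03. A comparison of assembly factors with subunits therefore rests on 1 NDUFAF gene.

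The 3 NDUF symbols outside complex I lay close to 0. NDUFA4 had -0.10 ± 0.26, NDUFA4L2 had -0.00 ± 0.15 and NDUFC2-KCTD14 had 0.01 ± 0.14 (SD, n = 5 guides each), with permutation adjusted p-values from 0.819 to 0.999.

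Taken as a list, 30 of 40 NDUF genes, or 75.0%, had a mean above 0, against 52.7% of all genes, and the medians were 0.09 and 0.01. In H1, which holds most of them, 78.1% of NDUF genes and 49.4% of all genes were above 0, with medians of 0.11 and -0.00; in H2 the medians were 0.06 and 0.02. Every guide was above 0 in 7 of 40 NDUF genes, 17.5%, and in 6.19% of all genes, while every guide was below 0 in 0 NDUF genes and in 4.90% of all genes. Without the guide farthest from 0 in each gene the median of the NDUF genes was 0.05. In 34 of 40 genes the SD over guides was larger than the distance of the gene's mean from 0. Single NDUF guides beyond the central 95% of non-targeting guides were 9 of 174 above and 5 below in H1, or 5.17% and 2.87%, against 3.61% and 4.86% of all targeting guides there. In H2 they were 2 of 30 above, 6.67%, and 0 below, against 5.58% and 5.69% of all targeting guides. These shares describe the list and were not tested.

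Set beside the rest of the respiratory chain, the 38 compared subunits of complexes II to V had a median of 0.01 with 5 genes called toward the top library, 13.2% against 2.57% of all genes, and 0 toward the bottom library. Complex II (4 genes) had a median of -0.00, complex III (9 genes) of -0.02 and complex IV (11 genes) of -0.12, each with 0 calls. All 5 calls were in the ATP synthase, where the median of 14 genes was 0.29. They were ATP5D at 0.40 ± 0.51, ATP5H at 0.38 ± 0.35, ATP5J2 at 0.36 ± 0.27, ATP5G3 at 0.33 ± 0.27 and ATP5I at 0.33 ± 0.19 (SD, n = 5 guides each). ATP5D and ATP5J2 were in H2 and the other 3 in H3, where 4.21% of gene starts were called higher in the top library. The difference between complex I and the ATP synthase was not tested.

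Some guides near NDUF starts were sorted in more than 1 sublibrary, under the names of different genes, and these give the spread between sorts that the libraries allow to be measured. Over all genes 485 guides at the same position were compared in a pair of sublibraries, and the SD of the difference in log2(top/bottom) was 0.361. For the mean over 3 or more such guides it was 0.180, over 94 pairs of targets, with a median absolute difference of 0.107. The Pearson r between sorts was 0.61 over the guides and 0.86 over these means. Most NDUF genes had a mean below 0.180, but that SD is of a difference and holds the error of both sorts. Of the 485 guides 13 lie at NDUF starts, with an SD of the difference of 0.258. NDUFC2 and the readthrough gene NDUFC2-KCTD14 share 3 guides, which had log2 ratios of 0.24, 0.00 and 0.28 in H1, against -0.10, 0.16 and -0.16 in H7. In the last of these the counts were 570 in the top and 377 in the bottom library of H1, and 410 in the top and 446 in the bottom library of H7. All 5 guides of NDUFA11 recur under FUT5, with a mean of 0.02 in H1 and 0.17 in H6. For NDUFA13, a subunit of the membrane arm also known as GRIM-19, 4 guides recur under YJEFN3, with means of 0.04 in H2 and 0.06 in H6. The called genes NDUFAB1 and NDUFB2 had 0 such guides.

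**Figure D3:**
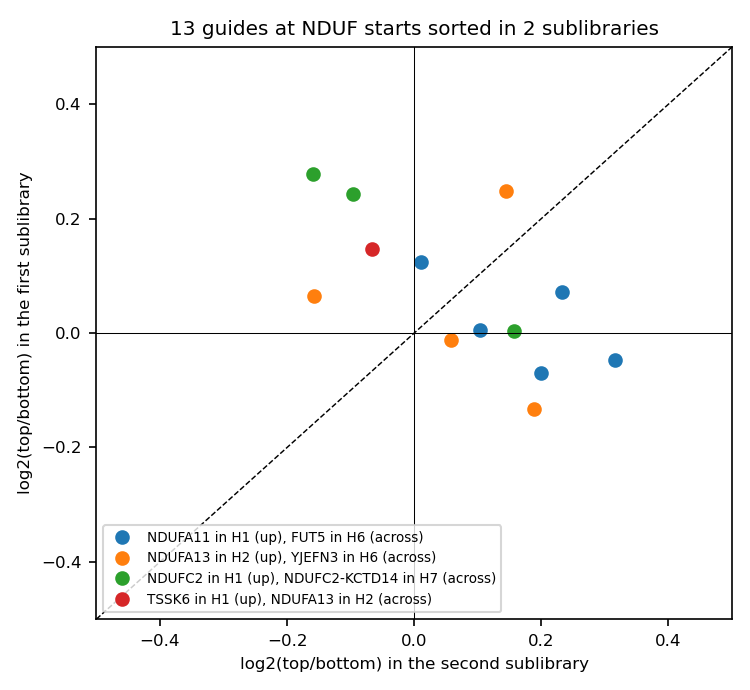
Log2(top/bottom) of 13 guides at NDUF starts in the sublibraries that both hold them, the first on the vertical and the second on the horizontal axis, coloured by gene pair; the dashed line marks equal values. The points do not follow the dashed line, and none lies farther than 0.32 from 0 on either axis.

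Guides near a start shared with another gene can repress both. For 19 NDUF genes guides of another gene lay within 1000 bases, and for 16 of them such a neighbour was compared. Of the neighbours 2 were called, both higher in the bottom library. Over all gene starts 1.52% were called in that direction, and in H3, which holds 1 of the 2, 106 of 3093 genes. Whether neighbours of NDUF genes were called more often than other genes was not tested. The start of NDUFA7 lies 120 bases from that of RPS28, a protein of the small ribosomal subunit, and the genes run away from each other. The bases between these starts, chr19:8321376-8321495 of GRCh38.p14 from RefSeq, are shown on the minus strand, along which NDUFA7 is read, with GG of NGG in capitals, because it lies before both starts.

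NDUFA7 and RPS28: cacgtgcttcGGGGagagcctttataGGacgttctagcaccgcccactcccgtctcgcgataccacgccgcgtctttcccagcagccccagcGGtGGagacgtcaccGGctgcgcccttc

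This stretch held NGG 7 times on the strand shown and 16 times on the other, and guides were not placed on it. The 5 RPS28 guides, in H3, had 1082, 785, 1577, 354 and 1919 counts in the top library, against 2086, 1185, 2199, 669 and 2592 counts in the bottom library. Their mean was -0.87 ± 0.24 (SD, n = 5 guides), with a permutation adjusted p of 0.000676, the smallest that the draws could give. The nearest guides of NDUFA7 and RPS28 are 188 bases apart, and the NDUFA7 guide next to RPS28 had -0.68. NDUFB1, a membrane-arm subunit, had 0.16 ± 0.21 while CPSF2, an mRNA 3′ end processing factor whose start lies 262 bases away, had -0.58 ± 0.65 (SD, n = 5 guides each; permutation adjusted p of 0.00294 for CPSF2). NDUFA2, of the matrix arm, had 0.11 ± 0.13, and IK, a splicing factor 198 bases away, had -0.30 ± 0.22 and did not pass (SD, n = 5 guides each; permutation adjusted p of 0.0608 for IK). The NDUFB1 guide next to CPSF2 had 0.40 and the NDUFA2 guide next to IK had 0.33. Thus the NDUFA7 mean lay on the side of its neighbour and the NDUFB1 and NDUFA2 means on the opposite side. The part of the neighbour in these values was not tested.

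**Figure D4:**
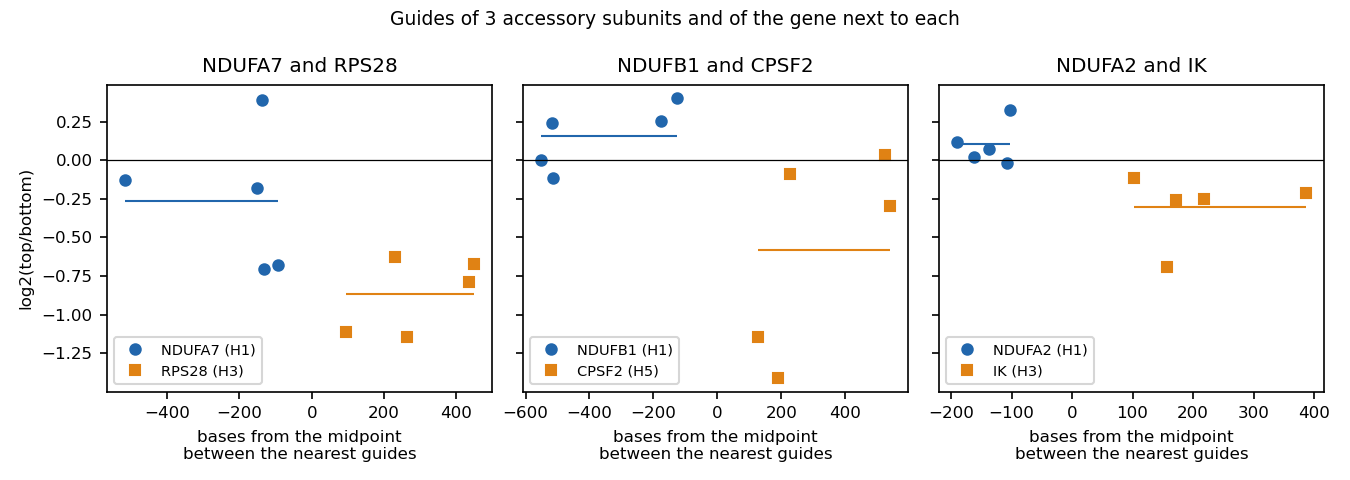
Log2(top/bottom) of guides against their distance in bases from the midpoint between the nearest guides of each gene pair, for NDUFA7 with RPS28, NDUFB1 with CPSF2 and NDUFA2 with IK; horizontal lines are means over guides. All 5 RPS28 guides lie below 0, while the NDUFA7 guides lie on both sides.

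Guide abundance, the log2 of top and bottom counts summed and set against non-targeting guides, asks whether cells with NDUF guides were rarer by day 8. No NDUF gene passed the threshold in either direction, 3 had an unadjusted permutation p under 0.05, and the smallest adjusted p was 0.508. Over all gene starts 0.0938% were called lower and 0.315% higher, so few genes could be called by this measure. The median of the NDUF genes was -0.04 against -0.11 over all genes, and 21 of 40 were below 0. The lowest were NDUFA5 at -0.70 ± 1.63, NDUFA7 at -0.68 ± 0.29, NDUFB8 at -0.58 ± 1.73 and NDUFS3 at -0.54 ± 0.71, and the highest was NDUFA1 at 0.71 ± 0.50 (SD, n = 5 guides each). Of these, NDUFA7 had every guide below 0, whereas in NDUFA5 the guides ran from 200 counts in the top and 151 in the bottom library to 3489 and 2407. NDUFAB1 and NDUFB2 had -0.01 ± 0.43 and -0.07 ± 1.25 (SD, n = 5 guides each). Abundance and log2(top/bottom) had a Pearson r of 0.20 over the 40 genes and 0.04 over the 214 guides, which share libraries and depth. Non-targeting guides themselves had an SD of 1.04 in H1 and 0.762 in H2. The starting pool was not analysed here, so unequal representation of guides and loss of cells cannot be told apart.

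**Figure D5:**
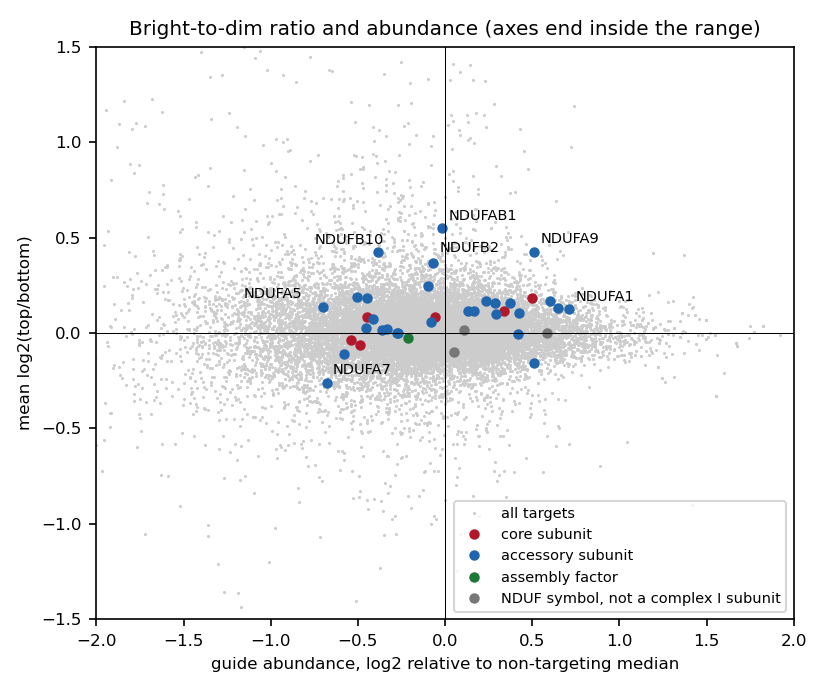
Mean log2(top/bottom) (vertical axis) against guide abundance relative to non-targeting guides (horizontal axis, log2), with 39 NDUF genes coloured by role over all gene starts in grey; some grey points lie beyond the axes. NDUFAB1 and NDUFB2 lie near 0 in abundance, and NDUFA7 is low on both axes.

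For the 7 NDUF genes of H4 the bottom library alone gave an abundance. NDUFAF6, an assembly factor, was the lowest at -1.22 ± 1.23, with 248 to 2300 counts per guide. NDUFAF3, NDUFAF4, NDUFAF7 and NDUFAF1 had -0.40 ± 0.41, -0.35 ± 1.27, -0.29 ± 0.58 and -0.26 ± 0.49, and NDUFAF5 and the accessory subunit NDUFB11 had 0.26 ± 0.30 and 0.28 ± 0.32 (SD, n = 5 guides each). The median gene start of H4 had -0.13 and the SD of its non-targeting guides was 0.710. These values were not tested, and a guide that is scarce among dim cells may be scarce in the pool or frequent among bright cells.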

How the data were processed

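The values are guide counts, deposited by the authors as whole numbers without normalization; per the labels' protocols guides were amplified from genomic DNA of sorted cells in 27 cycles, and the submitters' processing notes name Bowtie. The sources used here do not name the build behind the guide names or further counting settings. A guide missing from a library but listed in its partner was given a count of 0. The H4 top table ended after 35 complete guides, so H4 was not compared.

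A pseudocount of 1 was added, counts were divided by library totals, and guides with under 50 counts in both libraries were left out, keeping 91088 of 91463; a gene start entered with at least 3 guides. Means were tested against 100000 random draws that mixed a start's guides with non-targeting guides of its sublibrary (numpy 2.4.6, pandas 2.3.3), whose smallest p was 1e-05. With 1 library per group edgeR (4.0.16, R 4.3.3) has no residual degrees of freedom per guide; its quasi-likelihood test was an alternative with guides as blocks. Exact rank-sum tests used scipy 1.17.1. Genes with several starts are counted at the main one. PCR reads are not independent molecules, so the SD from counting covers counting error only.

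Members and lists were chosen with earlier results of these data known. Named genes were the core subunits (1 of them is not reported here), all NDUFAF genes and NDUF symbols outside complex I, the 5 highest and 5 lowest accessory subunits, all that passed, the 4 lowest in abundance and, of other assembly factors, the 2 farthest from 0; other NDUF genes are given so that all are accounted for, and neighbours, repeated guides and H4 values were chosen after values were seen. Chromosomes came from RefSeq symbols of assembly GRCh38.p14, with 18814 of 18905 matched.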

Additional observations from a re-analysis of the deposited data

How the results depend on the processing

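The ratio was recomputed under 13 alternatives, of which the averaging of guides less than 20 bases apart on a strand was chosen after seeing the data, and abundance under 4. NDUFAB1 passed in 10 and lost its call without the farthest guide (0.4164, adjusted p 0.391), with edgeR (0.5517, 0.0772) and with overlapping guides averaged (0.4894, 0.223). NDUFB2 passed in 8 and lost its call by the median (0.3015), without the farthest guide (0.2503), by exact rank sum (0.3697), with edgeR (0.3587) and with overlapping guides averaged (0.3908). The count of NDUF genes higher in the top library, 2, thus became 0 without the farthest guide, with edgeR and with overlapping guides averaged, 1 by rank sum, and 3 with no filter on counts and at 500 counts or more. NDUFB10 passed in 2, at 500 counts or more (0.4274) and by the median (0.6459, permutation adjusted p 0.00915). That median is the value of a guide that overlaps others of the gene. With overlapping guides averaged NDUFB10 had 0.2576 (permutation adjusted p 0.598). NDUFA9 passed in 1 of 12, with no filter on counts (1.1275, permutation adjusted p 0.00751). Over all gene starts 708 calls became 313 without the farthest guide and 243 with edgeR, and 17 calls of lower abundance became 40 from the bottom library alone and 5 by the median. Without the farthest guide the median fell to 0.0304 for core subunits, against 0.0845 with all guides, to 0.0768 for accessory subunits, against 0.1179, and to 0.0535 for all NDUF genes, against 0.0924. Under the other alternatives run these 3 medians lay at 0.0538 to 0.0892, 0.1011 to 0.1586 and 0.0843 to 0.1135. They were over 7 core subunits, 25 to 29 accessory subunits and 35 to 40 NDUF genes, since some settings left genes out. The 0.1135 was over 35 genes, without guides listed under several genes. Of 513 gene means under alternatives, 25 changed sign, in 10 genes, all uncalled and within their SD. The 513 include the rank-sum test and the adjustment within each sublibrary, which keep the main mean and so could not change its sign. The cause of each change was not tested. Fewer values enter for every gene without the farthest guide, and with averaged guides where guides overlap. Some other settings also leave guides out. Removal of the farthest guide also lowers by design the mean of a gene with all guides above 0. The random draws were not trimmed likewise, so lost calls and lower medians under this setting cannot be told apart from the trimming. No paired analysis was possible because each group had 1 library. Non-targeting guides of H1 had an SD of 0.265, and counting alone gives about 0.047.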
